A study of Mus musculus with 8 samples.

Results

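Retinoic acid is made from vitamin A inside cells and acts on genes through nuclear receptors. The 9 genes described here encode 3 steps of that pathway in mouse, with 3 genes each. Aldh1a1, Aldh1a2 and Aldh1a3 encode the retinal dehydrogenases that make retinoic acid. Crabp2, Dhrs3 and Cyp26b1 encode proteins that carry retinoic acid, return retinal to retinol and break retinoic acid down. Rara, Rarb and Rarg encode the 3 retinoic acid receptors. The genes were taken by symbol from the deposited table of 54532 genes, where each of the 9 symbols was found.

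RNA was sequenced from heart tissue of C57BL/6 mice in 4 groups of 2 libraries each. Wild-type (WT) mice had sham surgery or TAC, and mice labelled Piezo1-Cko (Cko) likewise had sham surgery or TAC. TAC is the usual short form of transverse aortic constriction, which narrows the aorta and loads the left ventricle with pressure, and sham surgery leaves the narrowing out. Piezo1 encodes a mechanically gated cation channel. The labels name neither the Cre driver, the cells or the exons of the Cko allele, nor the age of the mice, the time after surgery or the part of the heart that was taken. Nothing in them ties each library to an animal of its own, so errors and p-values cover the spread of these libraries and that spread may be technical.

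Expression is given in FPKM, a read level per kilobase of gene scaled by a library size, as deposited. Whole reads recovered from these values summed to between 15574769 and 17313084 per library. The library size behind the FPKM was 0.886 to 0.945 times that sum in the sham libraries and 1.02 to 1.10 times in the TAC libraries. A gene with the same share of all reads thus has a lower FPKM under TAC. Fold changes were taken on a log2(FPKM + 0.5) scale, with standard errors (SE) from limma, fitted over all 8 libraries for 13928 genes, and they understate changes of genes with low levels. A gene is called where its Benjamini-Hochberg adjusted p over those genes is under 0.05. The 9 genes were chosen by symbol with the FPKM of all 8 libraries in view, so their levels, folds and calls are descriptions, and no p-value of a single one of them is given. Piezo1 was at 2.35 and 3.09 FPKM in WT sham and at 3.83 and 3.23 in Cko sham. Under TAC it was at 5.38 and 5.83 FPKM in WT and at 5.24 and 3.89 in Cko. The total over the gene was thus no lower in the libraries labelled Cko sham, while both Cko TAC libraries lay below both WT TAC libraries. Such a total can keep reads of exons and cells that a conditional allele spares, which was not tested here. The labels were used as given.

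Of 8 cardiomyocyte markers, 8 were measured in these libraries, and they summed to 5581 to 14940 FPKM. Some libraries stood apart from the other of their group. WT sham 1 held the atrial muscle transcripts Myl7 at 394 FPKM and Sln at 43.6, while Sln was at 0 and Myl7 at most 0.443 FPKM in the other libraries. WT TAC 1 held the immunoglobulin transcript Igkc at 272 FPKM against 4.24 to 25.9 elsewhere. Cko sham 1 had the highest sum of the 10 epicardial and mesothelial markers, 7.27 FPKM against 3.76 to 4.60. Values without these WT libraries are given beside the results they change most.

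Retinol taken up by a cell is oxidized first to retinal, by retinol dehydrogenases such as the product of Rdh10, and then to retinoic acid by the ALDH1A enzymes. Retinoic acid receptors sit on DNA as pairs with RXR proteins, typically at repeats of a short hexamer, and release corepressors for coactivators once retinoic acid binds. In the embryo, retinoic acid made by Aldh1a2 in the heart-forming region and the epicardium is needed for the inflow part of the heart and for growth of the ventricular wall. Genes that dampen the pathway, such as Cyp26 genes and Dhrs3, and the receptor gene Rarb are textbook targets of retinoic acid itself.

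Of the 9 genes, 7 had an entry in the RefSeq promoter table (GRCm38.p6), with 14 windows of 300 bases among 32851. The windows were searched on both strands for direct repeats of the hexamer half-site of retinoic acid receptors with spacers of 1, 2 or 5 bases (DR1, DR2 and DR5). DR5 was found in 0.0974% of all windows, DR2 in 0.268% and DR1 in 0.222%. Among the windows of the 7 genes there was 1 match, a DR5 in the window of Rarb. It lies at -53 to -37 from the listed start, on the strand of the gene, and this start lies inside the listed span of Rarb. The 250 bases before the start are shown for Rarb, with the 2 hexamers of the repeat in capitals (chr14:16575477-16575726, minus strand), and for Aldh1a2, the gene with the largest fitted fold change of the 9 between TAC and sham, with CCAAT in capitals (chr9:71215539-71215788, plus strand).
Rarb: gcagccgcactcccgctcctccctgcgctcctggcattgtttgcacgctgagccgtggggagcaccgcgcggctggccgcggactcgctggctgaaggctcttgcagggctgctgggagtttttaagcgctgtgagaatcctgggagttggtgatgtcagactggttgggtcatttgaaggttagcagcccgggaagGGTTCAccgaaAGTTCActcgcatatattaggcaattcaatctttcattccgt
Aldh1a2: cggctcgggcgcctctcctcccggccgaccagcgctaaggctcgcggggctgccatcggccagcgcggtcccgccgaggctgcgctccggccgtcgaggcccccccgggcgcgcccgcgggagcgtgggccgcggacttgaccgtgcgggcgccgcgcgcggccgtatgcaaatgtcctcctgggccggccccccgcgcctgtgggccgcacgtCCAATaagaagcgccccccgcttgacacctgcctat
The Aldh1a2 bases are 77.6% G or C, against 58.0% for those of Rarb, and hold no DR5. CCAAT, a common promoter element, begins at -36 there and occurs in 37.4% of all windows on either strand. Among the other listed genes of the pathway, Cyp26a1 holds a DR5 at -32 to -16 on the opposite strand, and Bco1 a DR1. The hexamers are matches of letters, and binding of a receptor was not measured here.

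TAC was compared with sham in each genotype and as the average of both. In FPKM, Aldh1a2, Aldh1a3, Crabp2 and Rara were higher in all 4 TAC libraries than in any of the 4 sham libraries, and Dhrs3 was lower in all 4. As shares of all recovered reads, Dhrs3 overlapped between the surgeries. The FPKM of the other 4 genes, Aldh1a1, Cyp26b1, Rarb and Rarg, overlapped between the surgeries. Of the genes tested, 13.1% lay above without overlap in the same way and 14.6% below, 27.7% in all. In the averaged comparison 4 of the 9 genes were called, each of them higher (Aldh1a2, Aldh1a3, Crabp2 and Rara). Over all genes tested, 11.9% were called higher and 13.5% lower, 25.4% in all. Crabp2 passed the filter on low values only through 2 TAC libraries, so its place among the higher genes in both counts carries no weight. The WT and the Cko comparison each called 1 of the 9, Aldh1a2, as higher. Of all genes tested, 13.2% were called in WT, 5.57% as higher and 7.65% as lower. In Cko 1.49% were called, 0.948% as higher and 0.546% as lower.

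**Figure D1:**
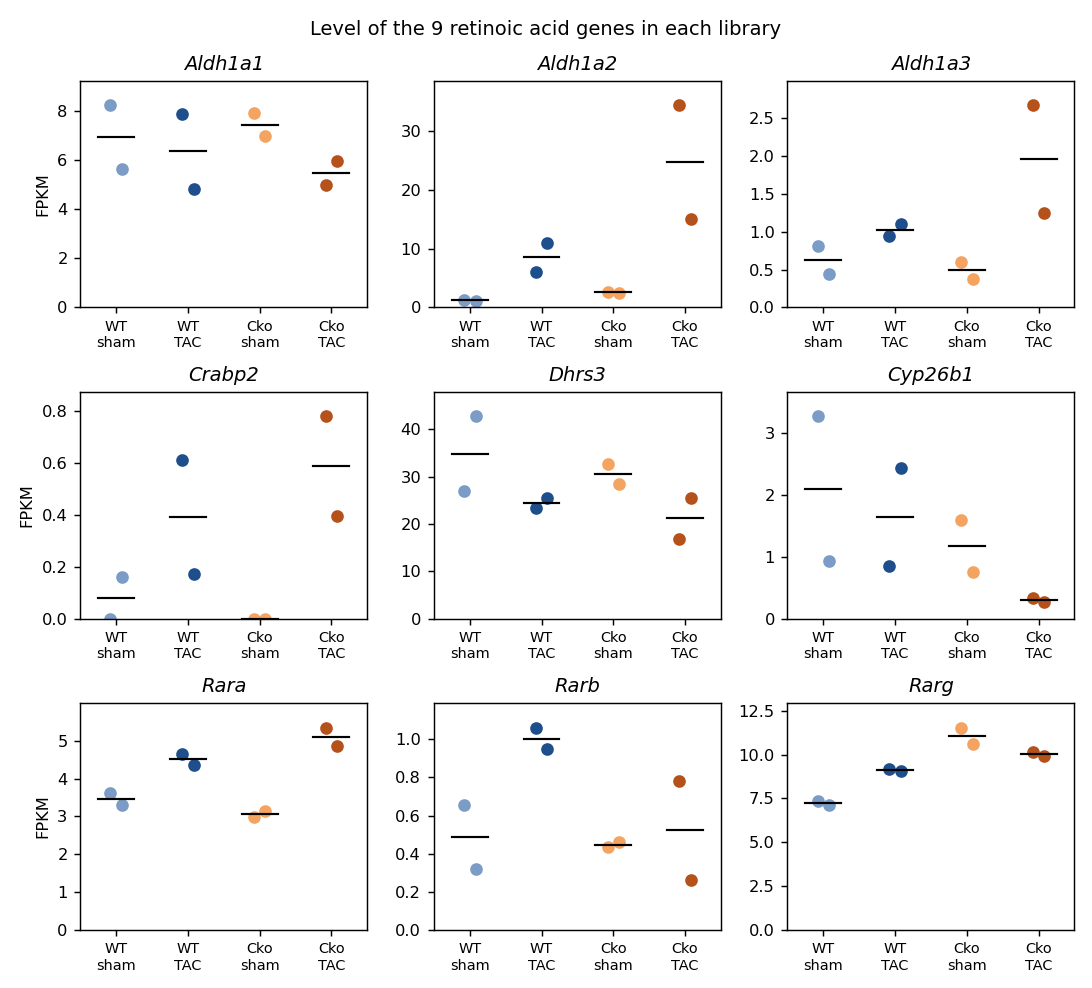
FPKM (vertical axes, each starting at 0) of the 9 genes in every library, by group (horizontal axes); points are libraries and the bar is the mean of 2. The 4 TAC libraries of Aldh1a2, at 6.13 to 34.4 FPKM, sit above the 4 sham libraries, at 1.15 to 2.71, whereas the points of Aldh1a1 overlap.

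Aldh1a2, on chromosome 9 (71215789 to 71296243, plus strand, GRCm38), encodes the main retinoic acid producing enzyme of the embryonic heart. It was at 1.34 and 1.15 FPKM in WT sham and at 6.13 and 10.9 in WT TAC. In Cko it was at 2.71 and 2.54 FPKM in sham and at 34.4 and 15.1 in TAC. These values rest on 37 to 94 reads in the sham libraries and on 258 to 1438 reads in the TAC libraries. Both TAC groups thus lay above both sham groups, and within each surgery both Cko libraries lay above both WT libraries.

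As group means, Aldh1a2 was at 1.24 ± 0.130 FPKM in WT sham and 8.52 ± 3.38 in WT TAC (SD, n = 2), a log2 fold change of 2.32 (SE 0.383), or 4.99-fold. In Cko the means were 2.62 ± 0.121 FPKM in sham and 24.8 ± 13.7 in TAC (SD, n = 2), a log2 fold change of 2.90 (SE 0.383). The average of both was 2.61 (SE 0.271), or 6.11-fold. The averaged call held in every alternative fit. The WT call was lost without WT sham 1, WT sham 2 or WT TAC 1, without both WT sham 1 and WT TAC 1, without the filter on low values and in limma-voom. The Cko call was lost without the filter and without Cko sham 1, Cko sham 2 or Cko TAC 1, while the Cko log2 fold change was 2.32 without Cko TAC 1 and 3.48 without Cko TAC 2.

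Aldh1a3, on chromosome 7 (66390890 to 66427517, minus strand), encodes another dehydrogenase of retinal, best known from the eye and nasal region of the embryo. Its level was 0.808 and 0.443 FPKM in WT sham against 0.943 and 1.10 in WT TAC. In Cko the values were 0.594 and 0.382 in sham and 2.67 and 1.24 in TAC. The TAC libraries were the 4 highest, with Cko TAC 1 at more than any other, as for Aldh1a2. The log2 fold change was 0.45 (SE 0.309) in WT, 1.26 (SE 0.309) in Cko and 0.86 (SE 0.219) averaged. The averaged call remained without WT sham 1 or Cko TAC 2 and was lost without any other single library or without the filter.

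Aldh1a1, on chromosome 19 (20492715 to 20643462, plus strand), encodes the dehydrogenase with the highest level of the 3 in the sham hearts. It was at 8.21 and 5.63 FPKM in WT sham against 7.86 and 4.82 in WT TAC. The Cko hearts had 7.90 and 6.95 under sham and 4.98 and 5.95 under TAC. The WT groups overlapped, and both Cko TAC libraries lay below both Cko sham libraries. On the log2 scale the change was -0.13 (SE 0.251) in WT and -0.41 (SE 0.251) in Cko, neither of them called. The WT value was 0.12 without WT sham 1, -0.39 without WT sham 2, -0.46 without WT TAC 1 and 0.19 without WT TAC 2, so its sign rested on single libraries. The near copy Aldh1a7, which could share reads with it, was at most 0.375 FPKM.

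Since FPKM is per gene length, the 3 dehydrogenases can be set beside each other. Their summed level was 10.4 and 7.22 FPKM in WT sham and 11.2 and 9.87 in Cko sham. Under TAC it was 14.9 and 16.8 FPKM in WT and 42.1 and 22.3 in Cko, so that all 4 TAC libraries were above all 4 sham libraries. Aldh1a2 made up 12.9% and 15.9% of the sum in WT sham and 41.0% and 64.8% in WT TAC. In Cko its share was 24.2% and 25.7% in sham and 81.8% and 67.8% in TAC. The leading gene was Aldh1a1 in the 4 sham libraries and in WT TAC 1, where its share was 52.6%, and Aldh1a2 in the other 3 TAC libraries.

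**Figure D2:**
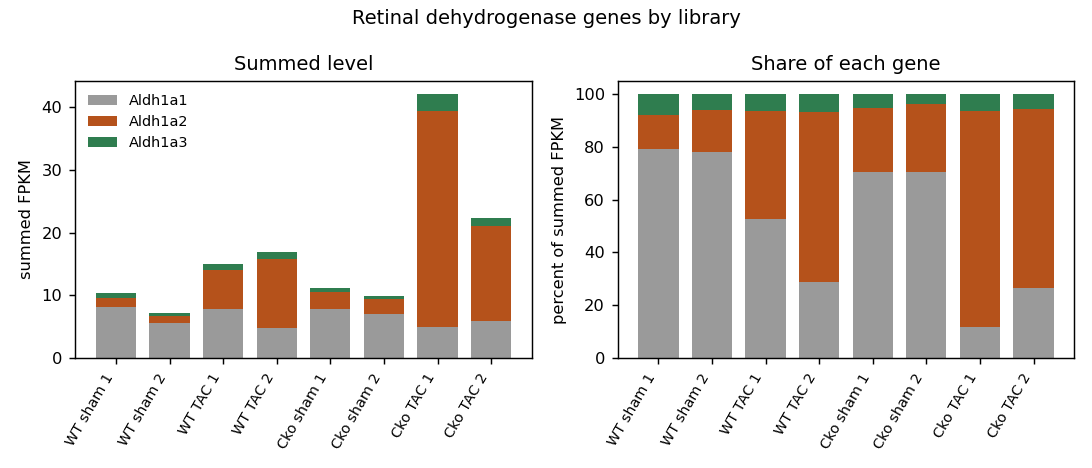
Summed FPKM of Aldh1a1, Aldh1a2 and Aldh1a3 in each library (left, bars from 0) and the share of each gene in that sum in percent (right). The Aldh1a2 share runs from 12.9% to 25.7% in the sham libraries and from 41.0% to 81.8% in the TAC libraries.

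Crabp2, on chromosome 3 (87948666 to 87953376, plus strand), encodes a carrier that brings retinoic acid to the receptors in the nucleus. It was near the limit of detection, with 0 and 3 reads in WT sham against 15 and 4 in WT TAC. The Cko libraries had 0 and 0 reads in sham and 19 and 9 in TAC. These are 0 and 0.160 FPKM, 0.610 and 0.171 FPKM, 0 and 0 FPKM, and 0.780 and 0.394 FPKM in the same order. The TAC libraries all lay above the sham libraries, though WT TAC 2 exceeded WT sham 2 by a single read. Against a floor of 3 reads per library, which is 0.148 FPKM on average in Cko sham, the Cko TAC mean of 0.587 FPKM was 3.96 times as high. The floor bounds the sham side only, and the spread of the 2 Cko TAC libraries is not in this ratio. Only 2 libraries, both TAC, passed the filter on low values, so the gene entered the test only through its high group. Its averaged call remained in 3 of the 8 fits that left out 1 library, those without WT sham 2, WT TAC 2 or Cko TAC 2, and it was no call without the filter.

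Dhrs3, on chromosome 4 (144892827 to 144928209, plus strand), encodes a reductase that turns retinal back into retinol and so keeps it from becoming retinoic acid. It had the highest level of the 9 genes in 7 of 8 libraries, the exception being Cko TAC 1, where Aldh1a2 was higher. It was at 26.9 and 42.7 FPKM in WT sham against 23.4 and 25.6 in WT TAC. For Cko it was 32.6 and 28.4 in sham and 16.8 and 25.5 in TAC. The TAC libraries were the 4 lowest in FPKM, though WT sham 1 lay close to WT TAC 2 and Cko TAC 2. As shares of all recovered reads the surgeries overlapped, with 1120 reads of 16038971 in WT sham 1 and 1288 of 16523039 in Cko TAC 2. The fitted log2 change was -0.46 (SE 0.257) in WT, -0.54 (SE 0.257) in Cko and -0.50 (SE 0.182) averaged. It was called in none of these comparisons, but the averaged comparison called it once WT sham 1 or Cko TAC 2 was left out.

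Cyp26b1, on chromosome 6 (84571414 to 84593908, minus strand), encodes a cytochrome P450 that oxidizes retinoic acid for removal. It was at 3.26 and 0.922 FPKM in WT sham against 0.844 and 2.43 in WT TAC. Cko sham stood at 1.59 and 0.745 and Cko TAC at 0.324 and 0.260. The 2 Cko TAC libraries, with 32 and 24 reads, were the lowest of the 8, and the 2 WT libraries of each surgery differed from each other by more than the WT groups did. The fitted log2 change was -1.03 (SE 0.528) in Cko and -0.22 (SE 0.528) in WT, and neither was called. The WT value was 0.48 without WT sham 1 and -0.92 without WT sham 2, and it was 1.05 without both WT sham 1 and WT TAC 1. The highest library, WT sham 1, is the one with atrial transcripts. The atrial markers summed to 519 FPKM there and to 2.51 FPKM in WT sham 2. In the WT TAC libraries the order was the other way. WT TAC 1 had an atrial sum of 26.6 FPKM and Cyp26b1 at 0.844, and WT TAC 2 had 2.30 and 2.43. The part of atrial tissue in these values was not tested.

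Rara, on chromosome 11 (98927818 to 98974942, plus strand), encodes the most widely expressed of the receptors. It was at 3.63 and 3.31 FPKM in WT sham against 4.67 and 4.36 in WT TAC. In Cko the values were 2.99 and 3.16 in sham and 5.36 and 4.87 in TAC. No sham library reached any TAC library, and the libraries of a group lay close together. The log2 fold change was 0.34 (SE 0.127) in WT, 0.65 (SE 0.127) in Cko and 0.49 (SE 0.0897) averaged, or 1.41-fold, on 200 to 431 reads per library. The averaged call held in every alternative fit, and limma-voom also called the Cko comparison.

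Rarb, on chromosome 14 (16430839 to 16819156, minus strand), encodes the receptor whose promoter holds the DR5 shown above. It was at 0.655 and 0.321 FPKM in WT sham against 1.06 and 0.947 in WT TAC. The Cko hearts had 0.434 and 0.459 under sham and 0.783 and 0.264 under TAC. Both WT TAC libraries lay above all others, and the 2 Cko TAC libraries lay on both sides of the Cko sham level. On the log2 scale the change was 0.63 (SE 0.285) in WT and 0.06 (SE 0.285) in Cko, and neither was called. Rarb shares 1793 exonic bases with Top2b on the other strand, which reached 7.27 FPKM, and 227 with Gm48162. Whether the counting used strand is not given in the sources used here, so reads of these genes and of Rarb cannot be told apart.

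Rarg, on chromosome 15 (102234938 to 102257517, minus strand), encodes the receptor known from skin and cartilage. It was at 7.35 and 7.11 FPKM in WT sham and at 9.16 and 9.05 in WT TAC. In Cko it was at 11.5 and 10.6 FPKM in sham and at 10.1 and 9.93 in TAC. The TAC libraries were thus above the sham libraries in WT and below them in Cko, a pattern without overlap shown by 2.57% of the genes tested. The fitted log2 change was 0.31 (SE 0.112) in WT and -0.14 (SE 0.112) in Cko. The Cko value was -0.19 to -0.08 over the alternative fits, none of which scaled by the plain read total. Rarg had 754 and 692 reads in Cko sham, of totals of 16865275 and 16202258. In Cko TAC it had 796 and 731 reads, of totals of 16734502 and 16523039. As shares of those totals the Cko groups overlapped, so the fall in Cko depends on how the libraries are scaled. The fitted value stayed negative with trimmed-mean scaling and in limma-voom, which both start from the recovered reads. The interaction of genotype and surgery was -0.45 (SE 0.159) and was not called.

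The order of the receptors by FPKM was the same in all 8 libraries, with Rarg first, Rara second and Rarb last. Rarg made up 61.5% to 77.1% of the summed level of the 3 genes. Its highest shares, 77.1% and 74.6%, were in Cko sham, where Rarg itself was highest and Rara lowest. Rarb made up at most 7.13%, reached in WT TAC 1.

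**Figure D3:**
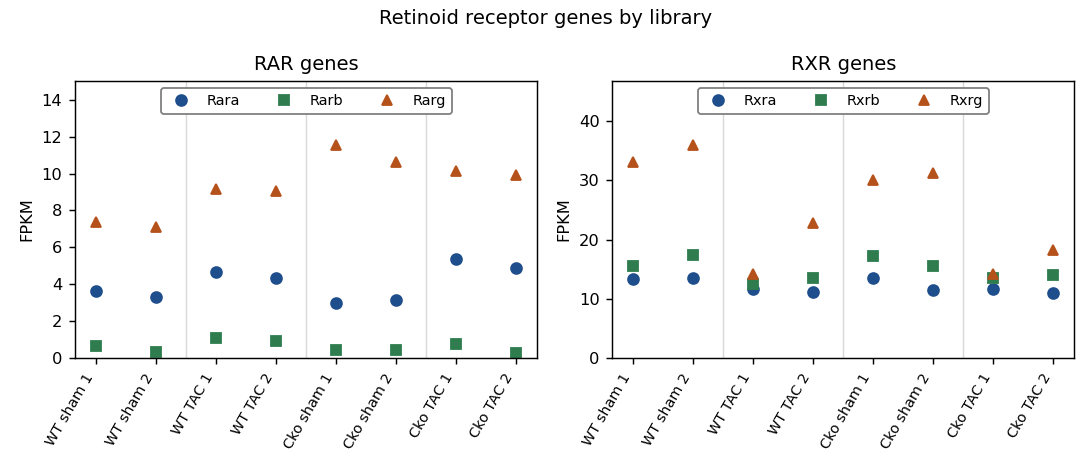
FPKM (vertical axes from 0) of the RAR genes (left) and of the RXR genes, whose products pair with them (right), in each library, with grey lines between groups. Rarg leads Rara and Rarb in all 8 libraries, and Rxrg is lower in the TAC libraries, at 14.1 to 22.7 FPKM, than in the sham libraries, at 30.1 to 36.0.

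Cko was compared with WT under each surgery to ask whether the allele went with a different level of these genes. None of the 9 was called under sham, where 0.0215% of all genes were, none under TAC, where 0% were, and none in the interaction, where 0.00718% were. In that order 1, 2 and 1 of them had an unadjusted limma p under 0.05, as had 7.68%, 9.11% and 4.77% of all genes, and limma-voom called none. Without overlap within both surgeries, Aldh1a2 and Rarg were higher in Cko, as were 4.95% of the genes tested. Over all 4 libraries of each genotype Rarg alone of the 9 was higher without overlap, as were 1.72% of the genes tested, while 4.08% differed without overlap in either direction.

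The log2 fold change of Aldh1a2 between Cko and WT was 0.84 (SE 0.383) under sham and 1.43 (SE 0.383) under TAC. The TAC value was 0.84 without Cko TAC 1 and 2.01 without Cko TAC 2. The interaction was 0.58 (SE 0.542), and without Cko TAC 1 it was 0.00126. For Rarg the difference was 0.58 (SE 0.112) under sham and 0.13 (SE 0.112) under TAC. The 6 endothelial markers all had positive log2 differences under sham, with a median of 0.63. limma called none of them, with 5 at an unadjusted p under 0.05 against 7.68% of all genes, and their part in the Rarg value was not tested. Cyp26b1 had the most negative value under TAC, -1.33 (SE 0.528), with 0.844 and 2.43 FPKM in WT against 0.324 and 0.260 in Cko. The other 6 genes had differences of -0.20 to 0.11 under sham and of -0.60 to 0.63 under TAC.

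**Figure D4:**
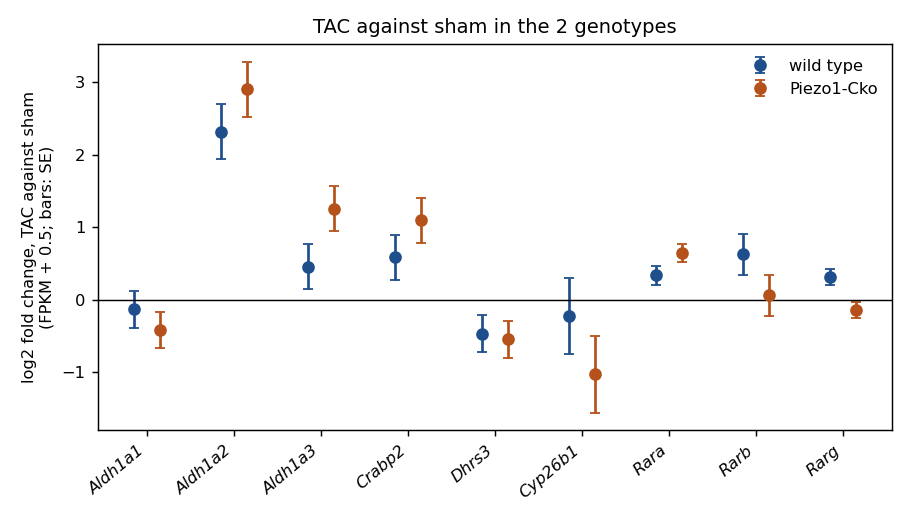
Log2 fold change of TAC against sham on the log2(FPKM + 0.5) scale (vertical axis) for each of the 9 genes (horizontal axis), in WT and in Cko; bars are the SE from limma. Aldh1a2 stands at 2.32 and 2.90, and the signs of Rarg differ, at 0.31 in WT and -0.14 in Cko.

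The rest of the pathway was described from lists of 72 other genes, of which 48 were tested. The lists were chosen with earlier results of these data known, so the adjusted p-values of their genes are descriptions too. Averaged over genotypes, limma called 6 of the 48 higher and 7 lower under TAC, while 11.9% of all genes tested were called higher and 13.5% lower. An unadjusted limma p under 0.05 was found for 39.6% of the 48 and for 40.3% of all genes tested. Their median log2 fold change was -0.12 against 0.01 for all genes tested. In WT alone 2 were called higher, Tgm2 and Lamb1, and 5 lower, Lpl, Rdh5, Rdh14, Dhrs4 and Rxrg. Of all genes tested, 5.57% were called higher in WT and 7.65% lower. In Cko alone limma called none, with 11 (22.9%) at an unadjusted p under 0.05 against 21.8% of all genes, and limma-voom called 1. None of the 7 WT calls was left without WT sham 2, WT TAC 1, Cko sham 1 or Cko sham 2, and without WT sham 1 the call of Lamb1 alone was left. Without WT TAC 2 those of Lamb1 and Rxrg were left.

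Of 10 tested genes that oxidize or reduce retinol and retinal, 4 were called lower and 1 higher on average. Rdh5, a retinol dehydrogenase known from the retina, was at 2.03 and 1.93 FPKM in WT sham and 0.785 and 0.928 in WT TAC. The Cko libraries had 2.42 and 2.60 FPKM in sham and 0.869 and 1.42 in TAC. It fell by 0.88 on the log2 scale (SE 0.137, limma adjusted p = 0.00679). Rdh14, which reduces retinal, fell by 0.58 (SE 0.0910, limma adjusted p = 0.00693), and Dhrs4, a retinal reductase of peroxisomes, by 0.55 (SE 0.0952, limma adjusted p = 0.00893). These 3 calls held in every alternative fit. Dhrs7 fell by 0.29 (limma adjusted p = 0.0384) and Rdh11 rose by 0.54 (limma adjusted p = 0.0268), but the call of Dhrs7 was lost in each fit that left out 1 library and that of Rdh11 in 5 of 8, those without WT sham 1, WT TAC 1, Cko sham 2 or either Cko TAC library. Rdh10, the main retinol dehydrogenase of the embryo, was at 1.52 to 3.62 FPKM and was not called (0.15, SE 0.218, limma adjusted p = 0.642).

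Among 13 RXR and cofactor genes, 2 were called lower, Rxrg and Rxrb. Rxrg, the RXR gene of muscle, had the highest level of the 3 RXR genes in every library. It was at 33.0 and 36.0 FPKM in WT sham against 14.2 and 22.7 in WT TAC. For Cko it was 30.1 and 31.2 in sham and 14.1 and 18.3 in TAC. It fell by 0.92 (SE 0.157, limma adjusted p = 0.00872), a call that held in every alternative fit. Its share of the RXR sum was 49.5% to 53.8% in the sham libraries and 36.0% to 48.0% in the TAC libraries. Rxrb fell by 0.29 (limma adjusted p = 0.0471), a call lost when any single library was left out, and Rxra was not called (-0.17, limma adjusted p = 0.179).

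Of 16 tested genes known to respond to retinoic acid in some cell type, 3 were called higher and none lower, with a median of -0.12. Tgm2, which encodes tissue transglutaminase, was at 43.5 and 49.3 FPKM in WT sham against 81.7 and 74.8 in WT TAC. Cko sham stood at 37.6 and 41.8 and Cko TAC at 73.8 and 56.9. It rose by 0.73 (SE 0.113, limma adjusted p = 0.00683), a call that held in every alternative fit. The laminin gene Lamb1 rose by 0.57 (limma adjusted p = 0.0128), and without either Cko sham library its adjusted p went up to 0.0517. Rai14 rose by 0.72 (limma adjusted p = 0.0281), and its call remained in only 2 of the 8 fits that left out 1 library, those without WT TAC 2 or Cko TAC 2. The other 13 genes of the list were not called.

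Of 6 tested genes of retinol uptake, binding and storage, Lrp1, a receptor for lipoprotein remnants that can carry retinyl esters, rose by 0.62 (limma adjusted p = 0.0440). Lpl, which encodes lipoprotein lipase, fell by 0.76 (limma adjusted p = 0.0187) from 451 to 769 FPKM in the sham libraries to 271 to 436 in the TAC libraries. The call of Lrp1 likewise remained only without WT TAC 2 or Cko TAC 2 among those fits, and that of Lpl was lost without WT sham 2, WT TAC 1 or either Cko sham library. None of the 3 tested binding and breakdown genes was called. Cyp26a1, which encodes a retinoic acid hydroxylase and holds a DR5 in its promoter, was at 0 to 1.18 FPKM with no call (limma adjusted p = 0.812). Crabp1 and Stra6 were too low to be tested, at most 0.473 and 0.290 FPKM. Between genotypes and in the interaction limma called none of the 48, with 4 (8.33%) at an unadjusted p under 0.05 under sham, 2 (4.17%) under TAC and 3 (6.25%) in the interaction, and limma-voom called none.

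**Figure D5:**
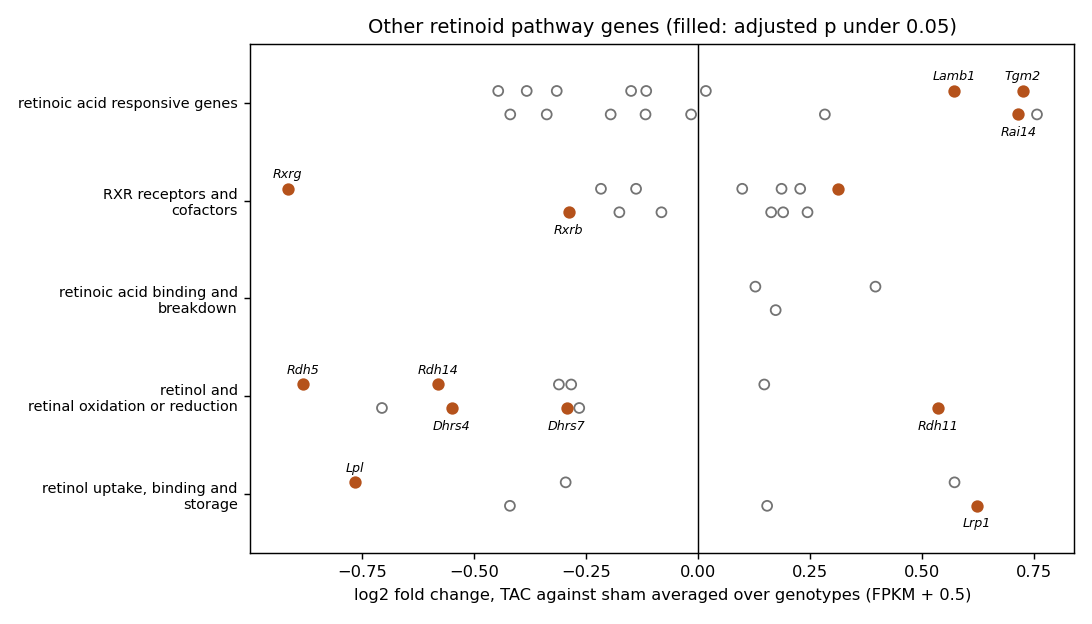
Log2 fold change of TAC against sham averaged over genotypes (horizontal axis, log2(FPKM + 0.5) scale) of the 48 tested pathway genes beside the 9, by list (vertical axis); filled points have a limma adjusted p under 0.05. Rxrg, at -0.92, and Rdh5, at -0.88, lie farthest left, and Tgm2, at 0.73, lies near the right end.

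The hearts also differed in markers of cell types, and in bulk tissue fewer cells of a type and less RNA per cell cannot be told apart. The 8 cardiomyocyte markers summed to 12096 to 14940 FPKM in the sham libraries and 5581 to 8465 in the TAC libraries, with 6 of 8 called lower on average. The 8 macrophage markers summed in WT to 250.4 and 276 FPKM under sham against 385 and 351 under TAC, and in Cko to 263 and 258 against 481 and 449.7, with 7 of 8 called higher. The 6 activated fibroblast markers summed to 103 to 271 FPKM in sham and 161 to 379 in TAC, which overlapped, with 2 of 6 called higher, and the 8 fibroblast markers to 835 to 1277 and 643 to 827. Of those 8 fibroblast markers 3 were called higher and 1 lower on average, with a median log2 fold change of 0.29. The 10 epicardial and mesothelial markers summed to 3.76 to 7.27 FPKM in sham and 3.76 to 4.60 in TAC, with none of the 3 tested called and 4 of 10 under 0.5 FPKM in every library. Cko TAC 1 and Cko TAC 2, with the highest Aldh1a2, had the highest macrophage sums and an epicardial and mesothelial sum of 4.60 and 4.57 FPKM. The 6 endothelial markers summed in WT to 205 and 249.8 FPKM under sham against 236 and 358 under TAC, and in Cko to 372 and 376 against 316 and 406, and the mural cell markers to 217 to 338 over the 8 libraries. Dendritic cell markers summed to 5.15 to 8.14 FPKM, skeletal muscle markers to 0.768 to 3.04 with Myh4 at 0 in every library, and adipocyte markers to 5.50 in WT sham 1 and at most 0.700 elsewhere. B cell markers summed to 274 FPKM in WT TAC 1 and 5.74 to 26.9 elsewhere, and the atrial markers to 26.6 FPKM in WT TAC 1 and 1.63 to 3.24 in the other libraries outside WT sham 1, with Bmp10 at 0 in every library. The part of these cell types in the levels of the 9 genes was not tested.

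For the 7 of the 9 genes with at least 1 FPKM in 2 libraries, the genes with the most similar pattern were sought by Pearson's r over the 8 libraries, among 10787 protein-coding genes. The 8 points share their surgery and genotype groups, and no test goes with r. Aldh1a2 was most like Irak4 (r = 0.992), Cap1 (0.989) and Inpp5b (0.986). Cap1, which encodes an actin-regulating protein, was at 23.1 to 26.6 FPKM in sham and 29.0 to 46.1 in TAC, highest in Cko TAC 1 like Aldh1a2. Rara was most like C1qc (0.982), a complement gene of macrophages that is also among the macrophage markers, Soat1 (0.979) and Bmp2k (0.979). C1qc was at 38.0 to 43.4 FPKM in sham and 56.5 to 69.6 in TAC. Rarg was most like Wscd1 (0.975), Ahr (0.959), the receptor for dioxin, and Cyp4v3 (0.955). Aldh1a1 was most like Zfp316 (0.944), Aldh1a3 like Atxn7l3 (0.973), Dhrs3 like Paip2 (0.965) and Cyp26b1 like Cul3 (0.955).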

How the data were processed

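RNA of mouse hearts was prepared with Trizol and a NEBNext Ultra RNA kit, per the labels' protocols. Per the submitters' processing notes, the tools were featureCounts 1.5.0-p3, Bowtie 0.12.2 and CASAVA 1.8, and 2 builds are listed (mm10, mm8) without their roles; strand setting and filters are not given in the sources used here. The authors deposited 1 table of FPKM values for 54532 genes and 8 libraries. Multiplied by gene length, 100% of the nonzero FPKM fell within 0.01 of a whole read once divided by the value of 1 read in that library, which gave the reads. The implied library size was 0.886 to 1.10 times the total of those reads, 0.886 to 0.945 in the sham libraries and 1.02 to 1.10 in the TAC libraries. Positions are those of the table, and 53499 of 54495 shared identifiers had the same span and strand in GENCODE release M21 (GRCm38); Aldh1a1 was not among them.

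limma 3.58.1 in R 4.3.3 was fitted to log2(FPKM + 0.5) for 13928 genes with at least 0.5 FPKM and 10 reads in at least 2 libraries, with 1 term per group over all 8 libraries, an intensity trend and robust moderation (4 residual degrees of freedom, median prior 3.54). Tests were two-sided. Replicates were not copies of each other (chi-square per degree of freedom 15.9 to 40.5). The steps were run on simulated reads with the same spread setting for every gene. That run is no test of how the fit handles the spread of these libraries. The 9 genes, the pathway lists and the marker lists were chosen with earlier results of these data known. Named were the 9 genes, the RXR genes, Crabp1, Rdh10, Stra6, Cyp26a1, and per list up to 4 called genes by smallest p; some results under this rule are not reported here. Similar genes had a mean of at least 1 FPKM. Alternatives were pseudocounts of 0.1 and 1, no filter, a stricter filter of 1 FPKM and 20 reads, trimmed-mean scaling, limma-voom on the recovered reads, only the 4 libraries compared, the replicate number as a block, and each library left out; leaving out both WT sham 1 and WT TAC 1 was chosen after seeing the data. Promoters came from RefSeq.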

Additional observations from a re-analysis of the deposited data

Results flagged for a closer look

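In FPKM, Rarg moved opposite ways under TAC in the 2 genotypes, without overlap between the libraries: it was higher in both WT TAC libraries than in either WT sham library, and lower in both Cko TAC libraries than in either Cko sham library. The fall in Cko depends on how the libraries are scaled, since Cko sham and Cko TAC overlapped as shares of all recovered reads. With trimmed-mean scaling and in limma-voom, both from the recovered reads, the fitted Cko value stayed negative. The difference between the responses, on the log2(FPKM + 0.5) scale, was -0.45 (SE 0.159) and was not called. Since Rarg was chosen with these values in view, this difference is a description, and no p-value of it is given. With 2 libraries a group, 2.57% of the genes tested showed opposite directions without overlap.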

How the results depend on the processing

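With no filter on low values, the 7 other pathway genes called in WT became 0 and the 13 called on average became 7. Limited to the 4 libraries compared, the count was 0 in WT and 1 in Cko, where the fit over 8 libraries gave 0. Without both WT sham 1 and WT TAC 1 it was 0 in WT, 1 in Cko and 7 on average, and limma-voom gave 1 in Cko. When 1 library was left out, the counts ran from 0 to 7 in WT, from 0 to 2 in Cko and from 5 to 11 on average. Counts between genotypes and in the interaction were 0 in every fit. With the replicate number as a block, 11 were called in WT and Rxrb lost its averaged call; same-numbered libraries of different groups had correlated deviations of only 0.0256 to 0.248, so the numbers were not taken to pair them. Of 834 values of the 9 genes under alternatives, 759 moved by less than the spread between replicates, 75 by more, and no called value changed sign. Over all genes, the calls ran from 1 to 2187 in WT (main count 1842), from 0 to 466 in Cko (208), from 1332 to 3748 on average (3537) and from 0 to 21 for Cko against WT under TAC (0), where 21 were called without WT TAC 2. At these depths Crabp2 rested on at most 19 reads in a library and Rarb on at most 104.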
